A study of Rattus norvegicus with 4 samples.

Results

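Cytotoxic T cells in rat blood were examined by droplet single-cell RNA sequencing, with 1 library each for the SCI, MSC-i.t, MSC-i.v and Sham groups. The SCI library came from rats with a contusion of the spinal cord made by Allen's weight-drop method, without cell treatment. The MSC-i.t and MSC-i.v libraries came from injured rats that received mesenchymal stromal cells of umbilical cord origin at 72 h and again at 7 d after injury, at 10000000 cells per kg into the spinal canal (MSC-i.t) or 30000000 cells per kg into a vein (MSC-i.v). The Sham library came from the sham group of the same design. The labels used here give no strain, age, sex or blood sampling time and do not say how many rats each library holds, so a difference between libraries can be a difference between groups, animals or preparations, which cannot be told apart. No test between libraries was possible, and every interval below is an exact 95% interval that covers counting error only. UMIs (unique molecular identifiers, each standing for a captured RNA molecule) of the same cell are not independent, so these intervals are too narrow for a difference between animals.

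A barcode was counted as a cytotoxic T cell when it held 500 or more UMIs, 200 or more genes and at most 20% mitochondrial UMIs, 2 or more UMIs of the CD3 chains Cd3e, Cd3d and Cd3g together, 3 or more UMIs of Nkg7, Gzma and Ccl5 together, and no UMI of Foxp3, Csf1r, Cd79b or Ms4a1. Of 45986 barcodes kept, 24846 were T cells by the CD3 and exclusion criteria, and 687 of these were cytotoxic T cells. There were 135 in SCI, 225 in MSC-i.t, 160 in MSC-i.v and 167 in Sham. Their median depth was 8020 UMIs in SCI, 7889 in MSC-i.t, 5171.5 in MSC-i.v and 7006 in Sham, so that MSC-i.v was the shallowest library. No barcode of these cells occurred in more than 1 library, whereas 25 to 49 of all kept barcodes were shared by each pair of libraries.

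T lymphocytes recognise antigen through the T cell receptor, whose signal passes through the CD3 chains. Cytotoxic T cells and natural killer (NK) cells kill by releasing granules that hold perforin, which opens the membrane of the target cell, and granzymes, proteases that enter through it. NK cells lack CD3 and read their targets through killer-cell lectin-like receptors, several of which signal through the adaptors Tyrobp (DAP12) and Fcer1g. Invariant NKT cells are T cells that share NK receptors and depend on the transcription factor Zbtb16.

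The cells were chosen by their measured UMIs of Nkg7, Gzma, Ccl5 and the CD3 genes, so the levels of these genes are given only as a description. Il2rb, the beta chain shared by the interleukin 2 and interleukin 15 receptors, was not used by the rule. At least 1 Il2rb UMI was found in 73.3% of members in SCI, 76.9% in MSC-i.t, 73.1% in MSC-i.v and 76.6% in Sham, against 0.694 to 2.25% of B cells, which should lack cytotoxic programmes and had median depths of 2033.5 to 3194 UMIs. Klrb1a, the rat NKR-P1A receptor of NK cells, was detected in 58.5% of members in SCI, 63.6% in MSC-i.t, 68.8% in MSC-i.v and 66.5% in Sham, against 0.887 to 2.25% of B cells. Zbtb16 UMIs over all members numbered 1 in SCI, 0 in MSC-i.t, 1 in MSC-i.v and 0 in Sham. Zbtb16 UMIs were also few elsewhere, with 4 in all NK cells and 19 in all non-cytotoxic T cells (those with no UMI of Nkg7, Gzma or Ccl5), so these counts do not set how many members express it. The cells are called cytotoxic T cells here, by their rule, and whether NKT cells are among them was not tested.

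The start sites of 4 cytotoxic genes are shown for the sequence available to the T-box factors (Tbx21 and Eomes) and Runx factors that are known to act on cytotoxic genes in mouse. They are Nkg7 of the rule, Gzmm and Gzmk, and Prf1. The 4 were not all high in the same cells, as described by kind below. The windows run from 250 bases before to 50 bases after the RefSeq start (build GRCr8), and 4 of the 7 genes looked up were matched, Ccl5, Il2rb and Tyrobp having no entry. Nkg7 lies at chr1:102981247-102981546 on the plus strand, Gzmm (granzyme M) at chr7:10667207-10667506 on the minus strand, Gzmk (granzyme K) at chr2:46581966-46582265 on the minus strand, and Prf1 (perforin) at chr20:29788790-29789089 on the plus strand. Each is printed 5′ to 3′ on its own gene's strand, and capitals mark the T-box core GTGTGA and the Runx core TGTGGT, each searched on both strands (TCACAC and ACCACA on the other strand); the cores do not overlap in the windows shown.
Nkg7: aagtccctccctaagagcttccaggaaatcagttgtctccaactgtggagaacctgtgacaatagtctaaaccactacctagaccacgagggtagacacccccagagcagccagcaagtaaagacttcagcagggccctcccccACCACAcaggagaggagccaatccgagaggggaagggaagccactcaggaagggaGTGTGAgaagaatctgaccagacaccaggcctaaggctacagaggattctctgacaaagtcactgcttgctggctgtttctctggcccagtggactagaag
Gzmm: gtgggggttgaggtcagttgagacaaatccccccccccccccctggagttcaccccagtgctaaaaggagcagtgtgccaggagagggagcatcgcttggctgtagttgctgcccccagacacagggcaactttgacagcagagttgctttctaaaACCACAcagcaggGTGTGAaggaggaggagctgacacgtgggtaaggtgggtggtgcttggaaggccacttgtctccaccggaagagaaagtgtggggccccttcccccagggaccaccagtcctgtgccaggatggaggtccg
Gzmk: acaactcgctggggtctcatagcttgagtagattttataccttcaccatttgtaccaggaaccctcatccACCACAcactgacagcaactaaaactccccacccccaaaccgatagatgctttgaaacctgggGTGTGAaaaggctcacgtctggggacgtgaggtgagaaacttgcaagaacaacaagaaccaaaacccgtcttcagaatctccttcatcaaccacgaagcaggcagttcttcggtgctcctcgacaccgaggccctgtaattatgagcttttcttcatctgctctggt
Prf1: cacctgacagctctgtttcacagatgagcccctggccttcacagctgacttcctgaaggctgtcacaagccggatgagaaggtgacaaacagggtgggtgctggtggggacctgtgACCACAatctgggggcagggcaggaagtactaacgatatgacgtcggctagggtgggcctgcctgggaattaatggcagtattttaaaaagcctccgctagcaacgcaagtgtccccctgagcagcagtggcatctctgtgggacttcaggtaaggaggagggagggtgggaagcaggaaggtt
Nkg7, Gzmm and Gzmk each held 1 match of both cores. The T-box core began 51 bases before the start in Nkg7, 81 in Gzmm and 117 in Gzmk, and the Runx core 106, 94 and 180 bases before it. Prf1 held the Runx core 134 bases before the start and no T-box core. Of 33469 promoter windows of the same length, 13.7% held the T-box core and 17.3% the Runx core, so a match is a description of these letters and not a site.

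The 687 cells were of several kinds. The summed UMIs of Nkg7, Gzma and Ccl5 per cell had medians of 6 in SCI, 6 in MSC-i.t, 9.5 in MSC-i.v and 8 in Sham, but ran up to 702, 394, 381 and 392. Of all members 384 had 3 to 9 of these UMIs, 71 had 10 to 29 and 232 had 30 or more. These ranges differ in width, so the counts do not show a gap between low and high values. NK cells, which met the same rule with no CD3 UMI (722 cells), had medians of 155, 138, 96 and 121 UMIs in SCI, MSC-i.t, MSC-i.v and Sham.

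The 3 groups below were formed after the values were seen and are described without a test. The "Nkg7 alone" cells had no Ccl5 or Gzma UMI and fewer than 10 UMIs of Tyrobp and Fcer1g together. They were 307 cells, or 44.7% of the members. The "Ccl5/Gzma-high" cells had 10 or more UMIs of Ccl5 and Gzma together and none of Tyrobp or Fcer1g (90 cells, 13.1%). Their name follows this sum, which was mostly Ccl5. Gzma itself was far below Ccl5 in this group in every library, as given below. The "adaptor-high" cells had 10 or more UMIs of Tyrobp and Fcer1g together (136 cells, 19.8%), and 154 cells (22.4%) fell in none of the 3 groups.

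**Figure D1:**
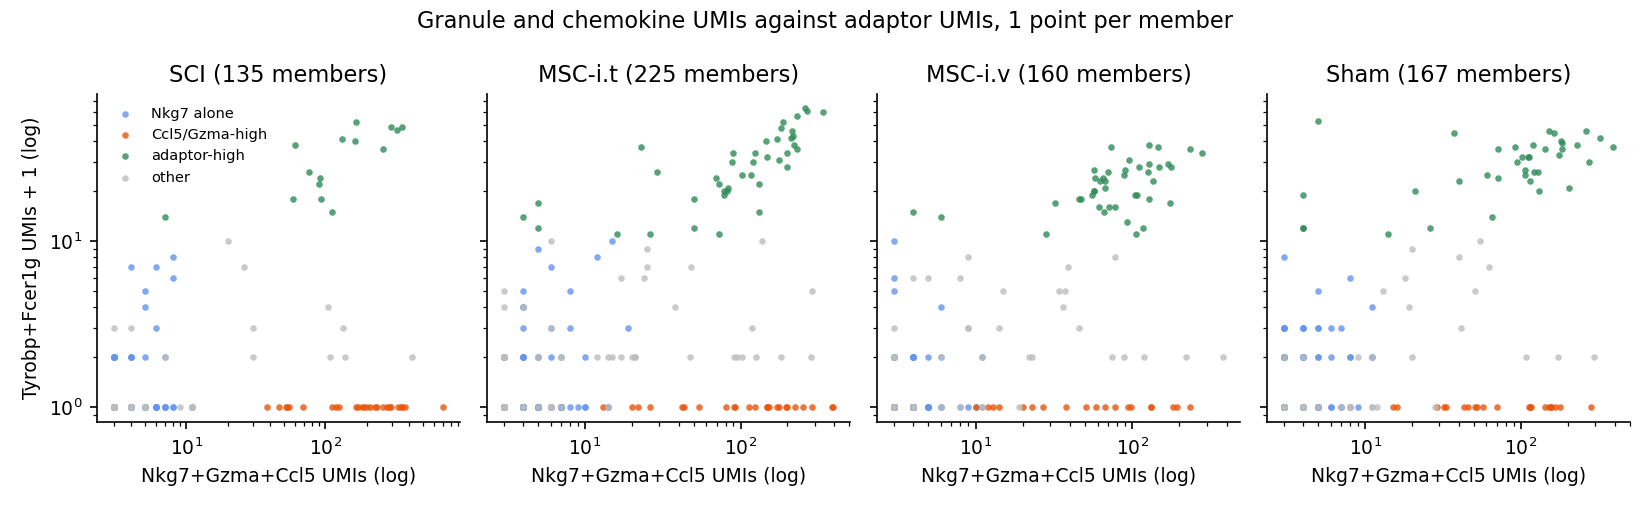
Each point is 1 cytotoxic T cell, with 1 panel per library; the x axis is the UMIs of Nkg7, Gzma and Ccl5 together and the y axis the UMIs of Tyrobp and Fcer1g together plus 1, both on log axes, coloured by kind. In every panel the cells run along the bottom at few adaptor UMIs, and a second cloud lies at 10 or more adaptor UMIs, mostly at the upper right; it holds 15 cells in SCI, 41 in MSC-i.t, 42 in MSC-i.v and 38 in Sham.

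The Nkg7 alone cells held CD3 and CD8 transcripts with granzyme M and few other granule transcripts. Gzmm, a granzyme also typical of NK cells, stood at 1807 CPM in SCI, 2086 in MSC-i.t, 2301 in MSC-i.v and 1949 in Sham, where CPM is the gene's UMIs per 1000000 UMIs of the summed cells. In non-cytotoxic CD8 T cells, which had no UMI of Nkg7, Gzma or Ccl5, Gzmm was at 152 to 172 CPM, and in B cells at 32.5 to 72.0 CPM. Gzmm in these cells was thus above both in every library, and it did not enter the rule. Gzmk was low, at 18.1 to 31.0 CPM, and Prf1 at 75.6 to 114 CPM, no higher than the 106 to 118 CPM of non-cytotoxic CD8 T cells.

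NK receptors were present in the Nkg7 alone cells. Klrb1a was at 274 CPM in SCI, 259 in MSC-i.t, 383 in MSC-i.v and 237 in Sham, against 10.5 to 16.4 CPM in non-cytotoxic CD8 T cells. Klrd1 (CD94, a partner chain of NK receptors) was at 274 to 373 CPM against 81.4 to 119.5 CPM, and Il2rb at 256 to 281 CPM against 59.1 to 72.0 CPM. Ncr1 (NKp46) and Klrg1, which mark mature NK and effector cells, had no UMI in these cells in any library. Genes of naive and memory T cells were also present. Lef1, a transcription factor of naive T cells, was at 284 CPM in SCI, 277 in MSC-i.t, 186 in MSC-i.v and 284 in Sham, and Cd27, a costimulatory receptor, at 395 CPM in SCI, 399 in MSC-i.t, 359 in MSC-i.v and 347 in Sham. The chemokine receptor Cxcr3 was at 129.7 to 149.6 CPM, against 30.7 to 42.2 CPM in non-cytotoxic CD8 T cells.

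The Ccl5/Gzma-high cells held more of several effector transcripts. Ccl5, a chemokine that attracts T cells and monocytes and a rule gene, was at 28949.5 CPM in SCI, 15341 in MSC-i.t, 16419 in MSC-i.v and 14714 in Sham. Gzmk was at 1439 CPM in SCI, 1057 in MSC-i.t, 1000.05 in MSC-i.v and 1055 in Sham, above the Nkg7 alone cells in every library. Hopx, a cofactor of effector and memory T cells, was at 939 CPM in SCI, 1047 in MSC-i.t, 349 in MSC-i.v and 1198 in Sham, against 25.2 to 70.2 CPM in the Nkg7 alone cells. Id2, which supports effector differentiation, was at 206 to 394 CPM against 25.2 to 37.8 CPM, and Zeb2 at 23.3 to 83.3 CPM against no UMI. Lef1 was lower, at 105 to 227 CPM, and so was Cd27, at 178 to 246 CPM. Il2rb was also lower, at 135 to 186 CPM, against 256 to 281 CPM in the Nkg7 alone cells.

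Single cells carried much of some values in this small group of 19 to 26 cells a library. Ccl4 (MIP-1 beta), a chemokine released by activated cytotoxic cells, was at 1794 CPM in SCI, 311 in MSC-i.t, 279 in MSC-i.v and 476 in Sham, and 165 of the 323 Ccl4 UMIs in SCI came from 1 cell. Gzma was at 22.2 CPM in SCI, 553 in MSC-i.t, 34.9 in MSC-i.v and 23.8 in Sham, and 76 of the 112 UMIs in MSC-i.t came from 1 cell. Prf1 was at 58.1 to 198 CPM, and Ncr1 and Eomes had no UMI in the group. Prf1 in these cells was below NK cells (2010.3 to 2513 CPM) in every library.

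The adaptor-high cells carried NK and T cell transcripts together. Prf1 was at 938 CPM in SCI, 1193 in MSC-i.t, 825 in MSC-i.v and 959 in Sham, and Gzma at 809 CPM in SCI, 820.0 in MSC-i.t, 533 in MSC-i.v and 698 in Sham. Ncr1 was at 93.1 CPM in SCI, 78.8 in MSC-i.t, 78.2 in MSC-i.v and 73.3 in Sham, and Klrb1a at 1217 CPM in SCI, 1135 in MSC-i.t, 1123 in MSC-i.v and 915 in Sham, both above the other kinds and below NK cells (154 to 207 CPM and 1866 to 2148 CPM). Cd3e was at 372 CPM in SCI, 397 in MSC-i.t, 256 in MSC-i.v and 361 in Sham, below the 618 to 657 CPM of the Nkg7 alone cells, and Lef1 at 215 to 286 CPM, against 29.99 to 43.9 CPM in NK cells.

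The depth of these cells moved with that profile. The median was 9814 UMIs in SCI, 9473 in MSC-i.t, 6209 in MSC-i.v and 8663.5 in Sham, against 4727, 4514, 3181 and 4303 UMIs for NK cells and 5917, 5566, 3731 and 5058 for non-cytotoxic T cells of the same libraries; the 2 medians add up to 10644, 10080, 6912 and 9361. The 10 genes named below as lowest in members over NK cells had a median of 38.8% of their NK level in SCI, 37.2% in MSC-i.t, 33.2% in MSC-i.v and 36.5% in Sham, and the 10 named as highest had 46.6%, 50.05%, 62.1% and 57.1% of their level in non-cytotoxic T cells. Both sets were picked from a contrast whose members include the adaptor-high cells, so these percentages are a description only. Single genes varied, with Mcpt8 at 226% of its NK level in SCI and 2.06% in Sham. Barcodes with T and B cell genes together made up 2.01% of kept barcodes in SCI, 3.58% in MSC-i.t, 2.87% in MSC-i.v and 3.56% in Sham, and adaptor-high cells 0.185%, 0.374%, 0.252% and 0.371%. Neutrophil genes, listed below with RNA of other blood cells, summed to 12729 CPM in the adaptor-high cells of Sham. They summed to 0 CPM in those of SCI and MSC-i.t and to 21.3 CPM in those of MSC-i.v. Among all Sham members 1 barcode held 99.4% of S100a9 and 99.0% of S100a8 UMIs, so the Sham sum does not describe the group. Whether an adaptor-high barcode holds 1 cell, an NK and a T cell, or RNA of other blood cells was not tested, and results whose call or direction changed without these cells are also given without them.

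**Figure D2:**
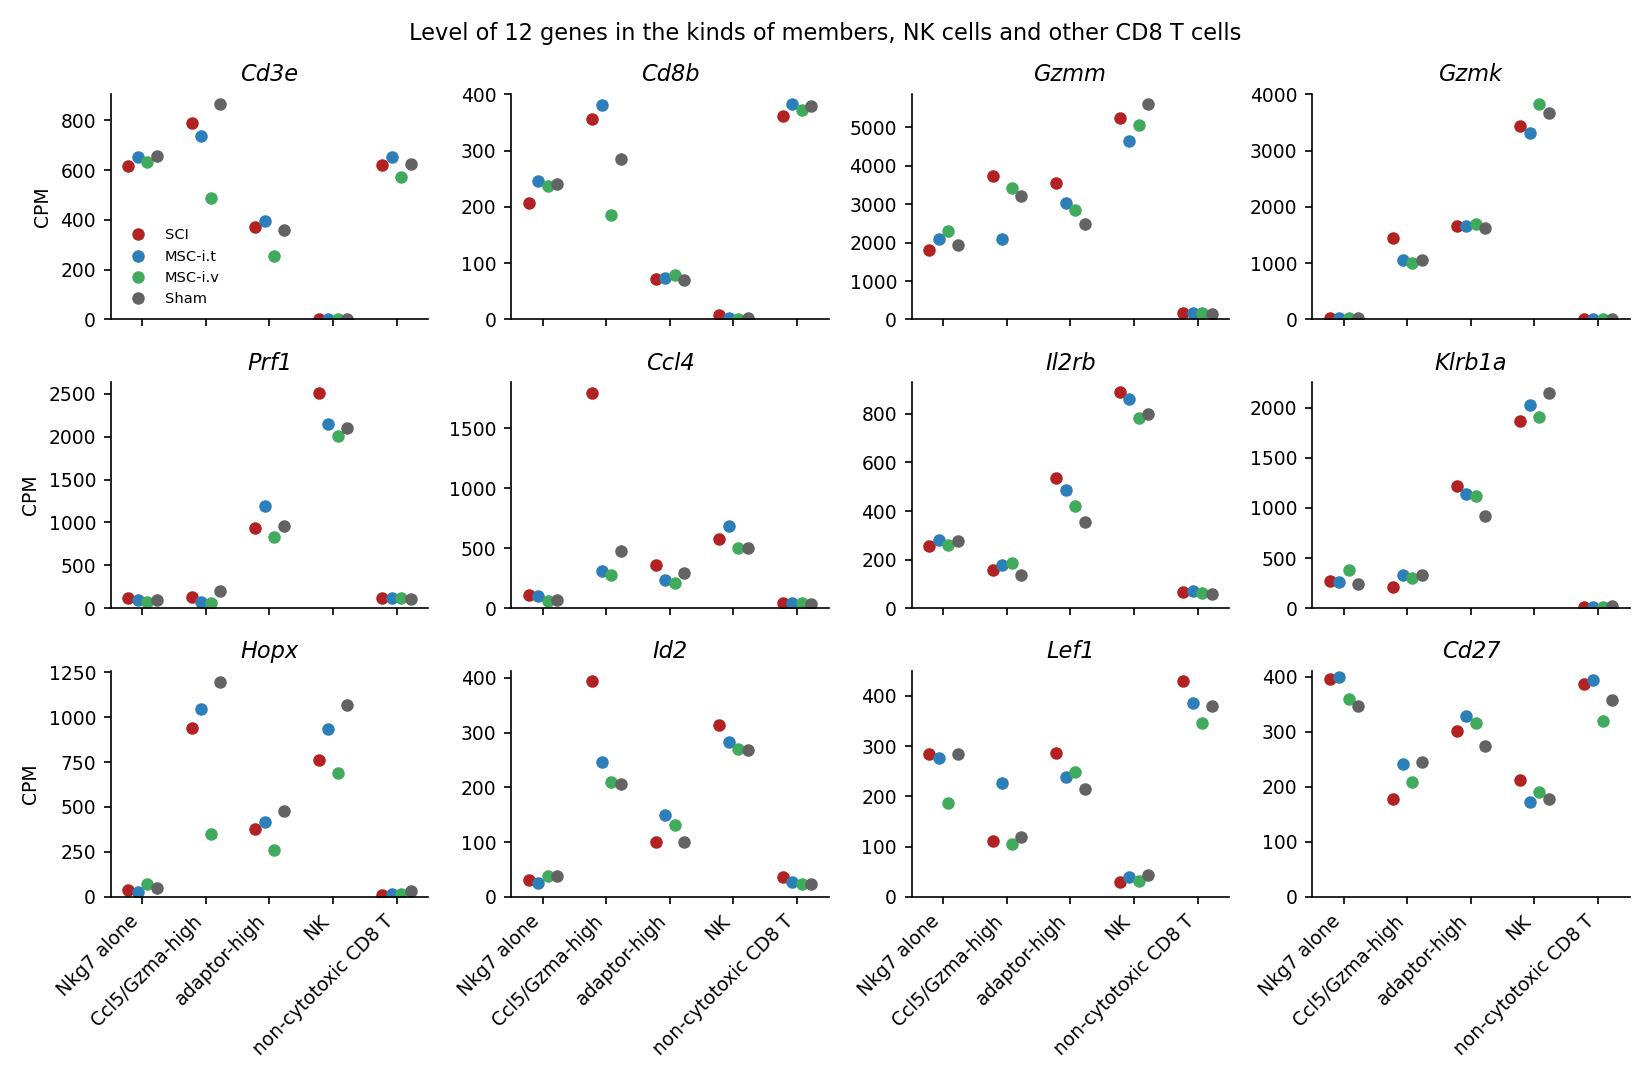
Level in CPM (y axis, linear and starting at 0) of 12 genes in Nkg7 alone, Ccl5/Gzma-high and adaptor-high cytotoxic T cells, in NK cells and in non-cytotoxic CD8 T cells (x axis), with 1 point per library and no error bars. Gzmm and Il2rb in the Nkg7 alone cells lie above the non-cytotoxic CD8 T cells in all 4 libraries, Hopx peaks in the Ccl5/Gzma-high cells of SCI, MSC-i.t and Sham, and Prf1 is high only toward the adaptor-high and NK columns.

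At the threshold of the rule, 154 members had exactly 3 UMIs of Nkg7, Gzma and Ccl5, and 457 T cells just outside it had 2. Gzmm was at 1125 CPM in SCI, 1309 in MSC-i.t, 2253 in MSC-i.v and 1669 in Sham in the members with exactly 3, and at 569 CPM in SCI, 757 in MSC-i.t, 955 in MSC-i.v and 774 in Sham in the cells with 2. Il2rb was at 182 to 277 CPM inside and 122 to 166 CPM outside. The cells just outside thus also held these transcripts, above the 152 to 172 CPM of Gzmm and the 59.1 to 72.0 CPM of Il2rb in non-cytotoxic CD8 T cells.

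Members with 2 or more UMIs of the CD8 chains Cd8a and Cd8b were compared with non-cytotoxic CD8 T cells (5801 cells), to ask which genes went with the cytotoxic UMIs among CD8 T cells. UMIs were summed per library, and the 4 pairs of sums were tested with edgeR's quasi-likelihood test with the library as a block and Benjamini-Hochberg adjustment over all genes tested. Because the rule sorted barcodes of the same libraries, its genes were left out, and a call says that a gene went with the rule genes in the same barcodes. Of 8338 genes, 837 were higher (10.0%) and 686 lower (8.23%), with 18.3% called in all.

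Most granule genes tested were higher in this contrast, which includes the adaptor-high cells. They were not all high in the same cells, as described by kind above. Of 15 granule and killing genes tested, 11 were higher and 0 lower, with a median log2 fold change of 1.08 against -0.02 over all genes. The named genes with the largest rise were Gzmk (7.86, SE 0.0891, edgeR adjusted p = 5.1e-50) and Gzmb, granzyme B (7.61, SE 0.28, edgeR adjusted p = 1.2e-27). In members Gzmk was at 432 to 575 CPM and in non-cytotoxic CD8 T cells at 1.59 to 3.15 CPM, without overlap between the libraries of the 2 groups. Faslg, the ligand of the death receptor Fas, rose (4.91, SE 0.30, edgeR adjusted p = 1.2e-18), as did Gzmm (3.67, SE 0.0568, edgeR adjusted p = 3.6e-44). Without the adaptor-high cells the log2 fold changes were 6.85 for Gzmk, 4.11 for Faslg and 3.62 for Gzmm. Gzmb then had too few UMIs for the filter on low counts, and its call was not tested there. It was at 2.18 CPM in SCI, 22.4 in MSC-i.t, 5.31 in MSC-i.v and 46.2 in Sham in the remaining cytotoxic CD8 T cells, against 0.0936 to 0.342 CPM in non-cytotoxic CD8 T cells, from 2, 32, 3 and 40 UMIs, of which 1 cell held 18 in MSC-i.t and 1 cell 26 in Sham. Prf1 rose by less (1.16, SE 0.0704, edgeR adjusted p = 6.7e-19), and that call rests on the adaptor-high cells. Without them its log2 fold change was -0.13 (edgeR adjusted p = 0.36).

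NK receptors were the list with the largest shift. Of 14 tested, 12 were higher and 0 lower (median log2 fold change 3.85), among them Klrb1a (4.90, SE 0.0748, edgeR adjusted p = 2.9e-44), the Cd94 partner Klrc3 (5.42, SE 0.27, edgeR adjusted p = 2.8e-22) and Klrd1 (1.59, SE 0.0598, edgeR adjusted p = 2.8e-27). The rat Ly49 receptor gene Ly49s6 was also among the 10 named genes (4.83, SE 0.13, edgeR adjusted p = 9.6e-33). Without the adaptor-high cells 9 of 11 were higher and 0 lower, with a median of 1.52, and Klrb1a (4.31), Klrc3 (4.596), Klrd1 (1.52) and Ly49s6 (4.95) stayed higher. Of the adaptors, Tyrobp was higher (3.57, SE 0.0720, edgeR adjusted p = 5.6e-39) but at -0.14 without the adaptor-high cells, whose choice used it (edgeR adjusted p = 0.65). The list of interleukin 2 and interleukin 15 receptor signalling did not shift as a whole. Of 12 genes tested, 4 were higher and 2 lower, with a median log2 fold change of -0.04 against -0.02 over all genes. Within it Il2rb rose (2.03, SE 0.0616, edgeR adjusted p = 2.9e-31), and so did both chains of the interleukin 18 receptor, Il18r1 (2.33) and Il18rap (3.60 on the log2 scale).

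Effector regulators and most trafficking receptors tested were also higher. Of 11 effector transcription factors, 9 were higher and 0 lower, including Tbx21 (T-bet; 3.17, SE 0.16, edgeR adjusted p = 5.8e-22), Hopx (3.56, SE 0.10, edgeR adjusted p = 3.6e-32) and Zeb2 (4.49, SE 0.43, edgeR adjusted p = 5.4e-12). Without the adaptor-high cells 4 of 7 were higher and 0 lower, with Tbx21 at 2.68 and Hopx at 3.34 on the log2 scale. Of 14 chemokine receptors and adhesion molecules, 9 were higher and 1 lower. Cxcr3, a receptor for entry into inflamed tissue, rose (1.48, SE 0.0909, edgeR adjusted p = 1e-18). The gut-homing integrin chain Itgb7 fell (-0.87, SE 0.11, edgeR adjusted p = 6.2e-09), and the gut-homing receptor Ccr9 was among the 10 named genes that fell (-1.46, SE 0.13, edgeR adjusted p = 1.4e-12). Of the cytokine and chemokine genes, 4 of 6 were higher and 1 lower, with Xcl1, which attracts cross-presenting dendritic cells (5.36, SE 0.20, edgeR adjusted p = 2.5e-27; 4.55 without the adaptor-high cells), and Ccl4 (2.31, SE 0.12, edgeR adjusted p = 2.9e-21) among those that rose.

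Naive and memory genes fell, by smaller amounts. Of 14 tested, 10 were lower and 1 higher (median log2 fold change -0.47), among them Lef1 (-0.76, SE 0.0532, edgeR adjusted p = 1e-16) and Ccr7 (-1.11, SE 0.25, edgeR adjusted p = 0.00072). Txk, a kinase of T cell receptor signalling, was the member that rose (0.72, SE 0.0735, edgeR adjusted p = 2.6e-11). Ralgps2, which led the genes that fell, was at 5.80 CPM in SCI, 8.21 in MSC-i.t, 5.57 in MSC-i.v and 5.49 in Sham in members, against 33.5 CPM in SCI, 32.7 in MSC-i.t, 26.8 in MSC-i.v and 27.2 in Sham in non-cytotoxic CD8 T cells. Xkrx, Itga6, Stom, Rab3ip, Ly6e, Tpmt and Acat2 were also among the named genes that fell, with log2 fold changes between -1.59 and -1.21, and the other named genes that rose were Srgap3, Atp1b1 and Afmid, between 4.94 and 5.23. Lag3, an inhibitory receptor, rose (1.25, SE 0.0777, edgeR adjusted p = 1.5e-18), and Tox, a regulator of exhausted T cells, fell (-1.03, SE 0.13, edgeR adjusted p = 6.3e-09).

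Cell cycle genes were also higher, in 12 of 15 tested, with 0 lower. Mki67 and Top2a, both of dividing cells, had log2 fold changes of 3.89 and 4.31. Without the 2% of barcodes with most UMIs in each library 7 of 14 were higher and 1 lower, and with every cell thinned to 2000 UMIs 1 of 10 was higher and 0 lower. The median depth was 5171.5 to 8196 UMIs in the cytotoxic CD8 T cells and 4526 to 7085 UMIs in the non-cytotoxic ones, and its part in the result was not tested. Mki67 was in few UMIs, at 30.2 to 45.1 CPM in all members.

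**Figure D3:**
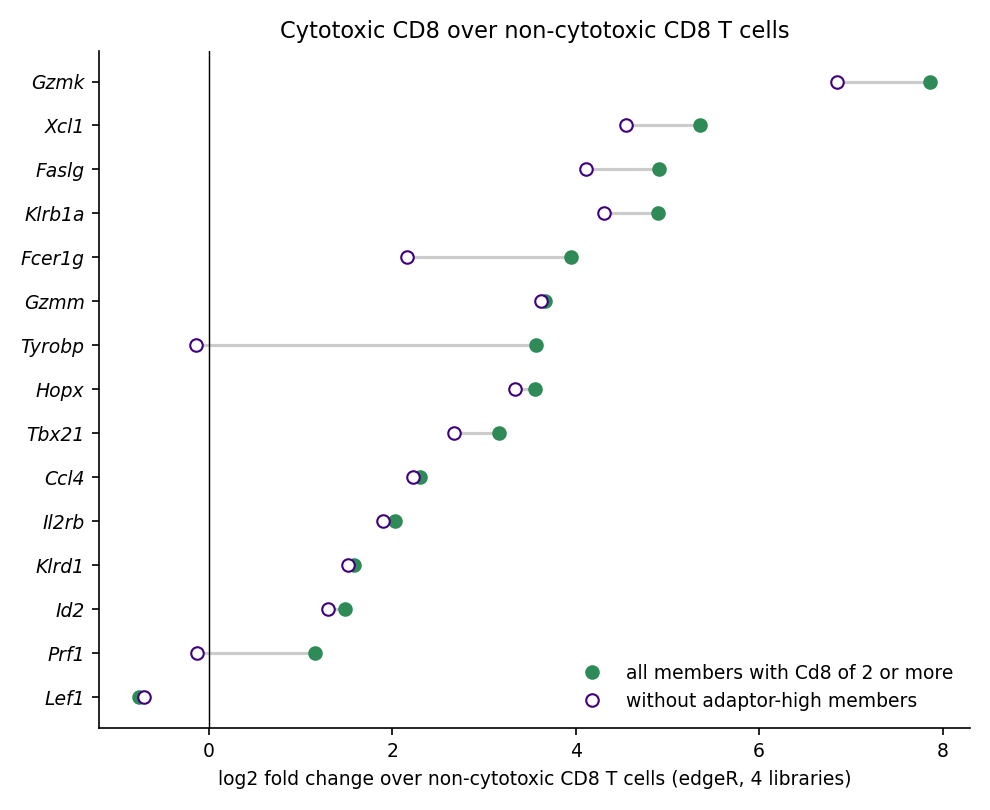
Log2 fold change (x axis, from edgeR over 4 libraries) of 15 genes (y axis) in cytotoxic CD8 T cells over non-cytotoxic CD8 T cells; filled points use all members with 2 or more CD8 UMIs, and open points leave out the adaptor-high cells. Gzmk, Gzmm, Klrb1a and Hopx stay far above 0 either way, whereas Prf1 and Tyrobp lie at -0.13 and -0.14 without the adaptor-high cells, and Lef1 lies below 0.

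Members were next compared with CD3-negative NK cells of the same libraries, to see which cytotoxic genes the T cells held less or more of. Of 5869 genes tested, 656 were higher (11.2%) and 678 lower (11.6%), with 22.7% called in all. NK cells and members were separated by CD3 UMIs, and T cell genes are tied to that choice. Of 15 NK receptors, 14 were lower in the T cells and 0 higher (median log2 fold change -2.10 against -0.01 over all genes). Ncr1 was at 11.7 CPM in SCI, 15.8 in MSC-i.t, 27.1 in MSC-i.v and 20.7 in Sham in members, against 207 CPM in SCI, 159.9 in MSC-i.t, 154 in MSC-i.v and 195 in Sham in NK cells (a log2 fold change of -3.07, SE 0.17, edgeR adjusted p = 1.4e-11). The 2 sets of 4 values do not overlap.

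Granule genes were also lower in the T cells, in 9 of 14 tested, with 1 higher. Prf1 was at 231 CPM in SCI, 327 in MSC-i.t, 314 in MSC-i.v and 365 in Sham in members, against 2513 CPM in SCI, 2148 in MSC-i.t, 2010.3 in MSC-i.v and 2100.2 in Sham in NK cells (a log2 fold change of -2.63, SE 0.0993, edgeR adjusted p = 1.1e-13). Gzmk (-2.47, SE 0.0673, edgeR adjusted p = 1.2e-15) and Gzmb (-2.76, SE 0.18, edgeR adjusted p = 1.5e-10) differed by similar amounts. Gzmm differed by less (-1.002, SE 0.0619, edgeR adjusted p = 1.1e-10), and Ctsw, a lysosomal protease of cytotoxic lymphocytes, was higher in the T cells (0.63, SE 0.0748, edgeR adjusted p = 1.4e-06). Of 9 effector transcription factors 8 were lower, with Prdm1 (Blimp-1) at -2.64 and Tbx21 at -1.93 on the log2 scale, and Runx1 was higher (1.24, SE 0.29, edgeR adjusted p = 0.0028). Without the adaptor-high cells the differences from NK cells were larger, at -3.96 for Prf1, -3.62 for Gzmk, -4.175 for Gzmb, -1.10 for Gzmm and -6.83 for Ncr1 on the log2 scale. Syk, a kinase that acts downstream of Tyrobp and Fcer1g, was among the 10 named genes that were lower (-3.27, SE 0.19, edgeR adjusted p = 5.4e-11).

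T cell and naive genes were higher in members. Of 12 naive and memory genes 11 were higher and 1 lower, with Lef1 at 2.92, Il7r, the interleukin 7 receptor chain, at 2.20, and Tcf7 at 1.49 on the log2 scale. Themis, a regulator of T cell selection, was at 28.9 CPM in SCI, 20.0 in MSC-i.t, 16.7 in MSC-i.v and 24.4 in Sham in members, and its 119 UMIs there stood against 0 UMIs in NK cells of all 4 libraries. Slamf6 was at 28.9 to 36.9 CPM in members, against 0 to 2.23 CPM in NK cells (a log2 fold change of 5.18, SE 0.44, edgeR adjusted p = 1.2e-08), and the helper ligand Cd40lg at 26.2 to 51.1 CPM against 0 to 4.50 CPM (a log2 fold change of 4.25, SE 0.42, edgeR adjusted p = 1.1e-07). The other named genes higher in members were Ms4a4c, Plcg1, Dpp4, Sit1, Rab3ip, Adam19 and Ramp1, with log2 fold changes between 3.98 and 6.57, and the other named genes lower in members were Kif5a, Cdhr1, Kcnk1, Fam109b, Smpd5, Klri2 and Cd24, between -3.69 and -3.14 (-7.16 to -4.50 without the adaptor-high cells). Mcpt8, a basophil protease, led the genes that were lower, but its NK value was 28.5 CPM in SCI, 13.9 in MSC-i.t, 26.8 in MSC-i.v and 793 in Sham, and 1 library holds most of it. Platelet genes were lower in members in 5 of 5 tested, and erythroid genes in 5 of 7, and the part of attached platelets or free RNA in these differences was not tested.

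By CD8, 574 members (83.6%) had 2 or more UMIs of Cd8a and Cd8b, 38 had 1 and 75 (10.9%) had none. The share with 2 or more was 91.9% in SCI, 87.6% in MSC-i.t, 73.8% in MSC-i.v and 80.8% in Sham. The share with none was 5.19% in SCI, 8.44% in MSC-i.t, 17.5% in MSC-i.v and 12.6% in Sham, and the median depth of all members was lowest in MSC-i.v. Cd4 was sparse in the cells without CD8, with 1 UMI in the 7 cells of SCI, 3 in the 19 of MSC-i.t, 6 in the 28 of MSC-i.v and 4 in the 21 of Sham. These counts do not set how many of the cells express Cd4, and its level in other T cells is not given here.

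Few genes separated the CD8-positive from the CD8-negative members. Of 3714 genes tested, 11 were higher (0.296%) and 11 lower (0.296%) in cells with 2 or more CD8 UMIs than in cells with none, with 0.592% called in all, and 312 had an unadjusted p under 0.05. Of 11 granule genes 0 passed the edgeR test, as did 0 of 9 NK receptors, 0 of 5 effector transcription factors and 0 of 11 naive and memory genes, and DESeq2 also called 0 in each of these lists. At an unadjusted p under 0.05 there were 3 granule genes (Ctsw, Gzmk and Gzmb), 2 NK receptors (Klrb1a and Cd226), 1 transcription factor (Hopx) and 0 naive and memory genes. Gzmm was at 2394 CPM in SCI, 2004 in MSC-i.t, 2241 in MSC-i.v and 2317 in Sham in the CD8-positive cells, against 1513 CPM in SCI, 2948 in MSC-i.t, 2299 in MSC-i.v and 1573 in Sham in the CD8-negative cells. The CD8-positive value was the higher in SCI and Sham and the lower in MSC-i.t and MSC-i.v, and sums over 7 to 28 CD8-negative cells a library limit what could be detected.

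Among the genes that differed, S100a4, a calcium-binding protein of memory and migrating lymphocytes, was lower in the CD8-positive cells, at 69.6 CPM in SCI, 76.2 in MSC-i.t, 65.5 in MSC-i.v and 45.8 in Sham, against 549 CPM in SCI, 360.1 in MSC-i.t, 743 in MSC-i.v and 289 in Sham in the CD8-negative cells (a log2 fold change of -2.72, SE 0.19, edgeR adjusted p = 1.7e-08). In each library 1 CD8-negative cell held most of that sum, with 26 of 29 UMIs in SCI, 23 of 43 in MSC-i.t, 76 of 128 in MSC-i.v and 26 of 43 in Sham. Without the cell with most S100a4 in each sum, the CD8-positive cells were at 36.1 to 59.0 CPM and the CD8-negative cells at 79.3 CPM in SCI, 188 in MSC-i.t, 322 in MSC-i.v and 119 in Sham, which still do not overlap. Cd40lg was at 17.4 to 30.6 CPM against 87.4 to 189 CPM (a log2 fold change of -2.12, SE 0.31, edgeR adjusted p = 0.00046). Tyrobp was at 234 to 469.7 CPM against 955 to 1254 CPM (a log2 fold change of -1.45, SE 0.14, edgeR adjusted p = 1.8e-06), a call that was lost without the adaptor-high cells (-1.32, edgeR adjusted p = 0.41). Ccl4 was higher in the CD8-positive cells, at 417 CPM in SCI, 151 in MSC-i.t, 152 in MSC-i.v and 196 in Sham, against 132 CPM in SCI, 134 in MSC-i.t, 105 in MSC-i.v and 53.8 in Sham in the CD8-negative cells (a log2 fold change of 1.08, SE 0.24, edgeR adjusted p = 0.038). Without the SCI, MSC-i.v or Sham library the edgeR adjusted p of Ccl4 was 0.058, 0.21 and 0.28. The other named genes were Alox15 (2.45) and Slc25a4 (1.06) upward, and Capg (-2.60), Dhrs3 (-2.11), S100a11 (-1.85), Cdc42ep3 (-1.22), Fcer1g (-1.20), Ctla2a (-1.11) and S100a6 (-0.93) downward, as log2 fold changes. Capg also came mostly from single cells, with 12 of 12 UMIs in SCI, 25 of 40 in MSC-i.v and 10 of 17 in Sham held by 1 CD8-negative cell. Alox15 had 1 UMI in the CD8-positive cells of SCI. In the other libraries 1 CD8-positive cell held 23 of 49 Alox15 UMIs in MSC-i.t, 18 of 34 in MSC-i.v and 42 of 142 in Sham. Alox15, Capg, Dhrs3, S100a11 and Cdc42ep3 lost the call without MSC-i.v, Slc25a4, Dhrs3, S100a11, Cdc42ep3 and S100a6 lost it without Sham, and S100a6 lost it without MSC-i.t. Ctla2a and Fcer1g lost it without the adaptor-high cells, where Alox15 and Dhrs3 had too few UMIs to be tested, whereas S100a4 and Cd40lg kept it with each library or the adaptor-high cells left out. Erythroid Hbb and Hba-a3 were also called higher in the CD8-positive cells, and erythroid RNA summed to 133, 338, 1854 and 5011 CPM there in SCI, MSC-i.t, MSC-i.v and Sham, against 113, 100.5, 383 and 215 CPM in the CD8-negative cells. Neutrophil RNA summed to 5.86 to 24.7 CPM in the CD8-positive cells, against 31481 CPM in the CD8-negative cells of Sham and 0 to 11.6 CPM in those of the other libraries. The Sham sum does not describe its CD8-negative cells, because 1 barcode held 99.4% of S100a9 and 99.0% of S100a8 UMIs among all Sham members. The part of erythroid and neutrophil RNA in the calls was not tested.

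The share of T cells that met the cytotoxic rule differed between libraries by less than a factor of 2. It was 2.55% in SCI (interval 2.14 to 3.01%), 3.44% in MSC-i.t (3.01 to 3.91%), 2.01% in MSC-i.v (1.72 to 2.35%) and 3.29% in Sham (2.82 to 3.82%). The intervals of SCI and MSC-i.t do not overlap, by a narrow margin (3.010% and 3.014% at their nearest bounds), and those of SCI and Sham, and of SCI and MSC-i.v, do. The interval of MSC-i.v overlaps with neither that of MSC-i.t nor that of Sham. With 6 or more UMIs asked of Nkg7, Gzma and Ccl5, the shares were 1.34% in SCI, 1.88% in MSC-i.t, 1.18% in MSC-i.v and 1.83% in Sham.

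The libraries differ in depth, with median UMIs of non-cytotoxic T cells of 5917 in SCI, 5566 in MSC-i.t, 3731 in MSC-i.v and 5058 in Sham. With each T cell thinned to 2000 UMIs, 51 of 5073 cells met the rule in SCI, 87 of 6275 in MSC-i.t, 72 of 7199 in MSC-i.v and 71 of 4832 in Sham. These are 1.01% (0.749 to 1.32%), 1.39% (1.11 to 1.71%), 1.00% (0.783 to 1.26%) and 1.47% (1.15 to 1.85%), and the 4 intervals overlap. B cells with 3 or more of the same UMIs, a measure of free RNA and mixed barcodes, were 0.900% in SCI, 0.445% in MSC-i.t, 0.386% in MSC-i.v and 0.654% in Sham before thinning, and 0.430%, 0.513%, 0.291% and 0.700% after it.

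**Figure D4:**
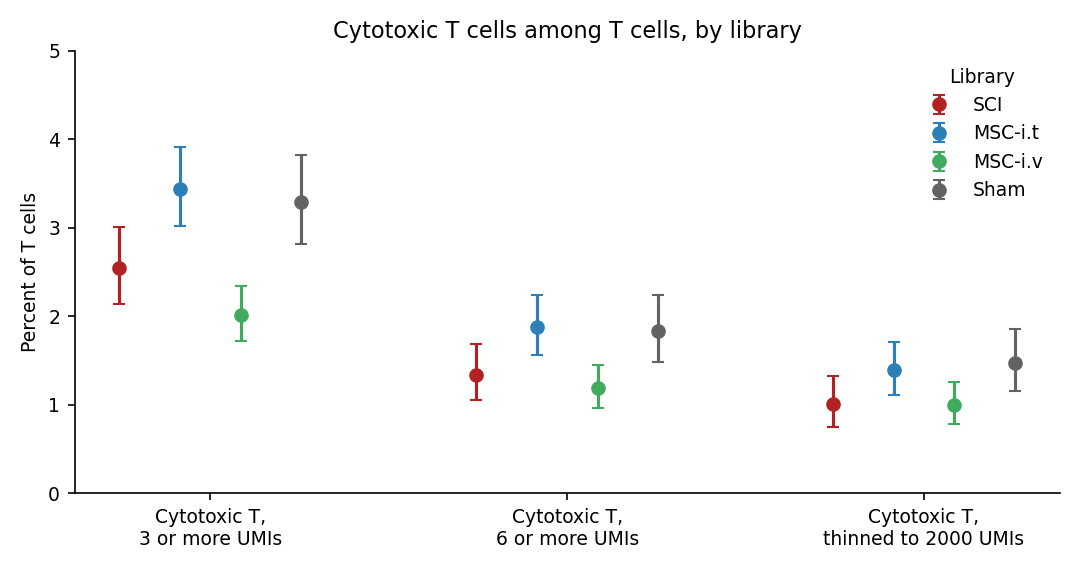
Percent of T cells (y axis) that met the cytotoxic rule in each library (x axis), by the rule as stated, with 6 or more UMIs asked, and with each cell thinned to 2000 UMIs; bars are exact 95% intervals for counting error. MSC-i.t at 3.44% and Sham at 3.29% lie above MSC-i.v at 2.01% by the rule as stated, and after thinning the intervals of all 4 libraries overlap.

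The makeup of the cytotoxic T cells also varied. Nkg7 alone cells were 46.7% of members in SCI, 47.1% in MSC-i.t, 39.4% in MSC-i.v and 44.9% in Sham. Ccl5/Gzma-high cells were 19.3% in SCI (13.0 to 26.9%), 10.7% in MSC-i.t (6.95 to 15.5%), 11.9% in MSC-i.v and 12.6% in Sham. Adaptor-high cells were 11.1% in SCI (6.35 to 17.7%), 18.2% in MSC-i.t, 26.3% in MSC-i.v (19.6 to 33.8%) and 22.8% in Sham (16.6 to 29.9%). The intervals of the adaptor-high share overlap between SCI and Sham and do not overlap between MSC-i.v and SCI.

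Between libraries, genes with 50 or more UMIs in the cytotoxic T cells of a pair were compared, and a CPM ratio of 2 or more in either direction was counted, with no test. SCI over Sham had 144 genes higher (3.54% of 4070) and 42 lower (1.03%), or 4.57% in all, and 126 of these 186 genes were also past 2-fold with the same sign in non-cytotoxic T cells. After the log2 ratio of non-cytotoxic T cells was subtracted, 13 were higher and 41 lower. The 151 genes at least 4-fold higher in SCI than in Sham in non-cytotoxic T cells summed to 5176 CPM in the cytotoxic T cells of SCI, 881 in MSC-i.t, 941 in MSC-i.v and 972 in Sham, and to 5910 CPM in NK cells of SCI, against 984 to 1147 CPM in those of the other libraries. All 5 named genes highest in SCI over Sham belonged to that set; Sap30l, a subunit of a histone deacetylase complex, was at 45.1 CPM in SCI against 2.22 CPM in Sham, a log2 ratio of 4.35 with an interval of 2.72 to 6.67. The log2 ratios of the other named genes were 4.31 for Dapk3, 4.04 for Purb, 3.76 for Cdv3 and 3.57 for Alyref. Jund, an AP-1 transcription factor, was at 366 CPM in SCI against 87.9 CPM in Sham, a log2 ratio of 2.06 with an interval of 1.76 to 2.37, and the log2 ratio in non-cytotoxic T cells was 2.03.

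Among granule genes and NK receptors, 4 were past 2-fold between SCI and Sham, 3 of them lower in SCI. Of 12 granule genes 1 was past 2-fold higher (Lamp1, a lysosomal membrane protein) and 1 lower (Gzmb) (median log2 ratio 0.10 against 0.06 over all genes), and of 9 NK receptors 0 were higher and 2 lower (median -0.16). Of all genes compared, 4.57% were past 2-fold either way and 1.03% were past 2-fold lower. Gzmm was at 2369.8 CPM in SCI, 2070.3 in MSC-i.t, 2376 in MSC-i.v and 2161 in Sham, and Prf1 at 231 CPM in SCI, 327 in MSC-i.t, 314 in MSC-i.v and 365 in Sham. Gzmb was at 19.0 CPM in SCI against 72.4 CPM in Sham, a log2 ratio of -1.93 with an interval of -2.69 to -1.24, while the log2 ratio in non-cytotoxic T cells was 2.42. Gzmb was near the floor in such cells. Those with 2 or more CD8 UMIs held 3 Gzmb UMIs in SCI and 2 in Sham (0.342 and 0.263 CPM), so the 2.42 is not read as a rise. The NK receptors past 2-fold were Klrc3 (19.9 CPM in SCI against 44.3 CPM in Sham) and Klri1 (17.1 CPM in SCI against 37.7 CPM in Sham). In adaptor-high cells Gzmb was at 136 to 187 CPM, Klrc3 at 67.5 to 107 CPM and Klri1 at 100.3 to 163 CPM, against 0 to 13.1 CPM, 1.76 to 27.0 CPM and 4.93 to 14.9 CPM in the Nkg7 alone cells. Adaptor-high cells were 11.1% of members in SCI and 22.8% in Sham. Without them the log2 ratios were -1.69 for Klrc3 and -0.82 for Klri1, which is then short of 2-fold, and Gzmb was at 2.07 CPM in SCI against 40.6 CPM in Sham, from 2 and 40 UMIs, 26 of the 40 in 1 cell (log2 ratio -4.30, interval -7.39 to -2.35).

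Ccl4 was the chemokine past 2-fold in SCI, at 424 CPM in SCI against 181 CPM in Sham, a log2 ratio of 1.23 with an interval of 1.00 to 1.46, while the log2 ratio in non-cytotoxic T cells was 0.08. At least 1 Ccl4 UMI was found in 54.8% of members in SCI, 49.8% in MSC-i.t, 38.8% in MSC-i.v and 45.5% in Sham. A single SCI cell held 165 of the 470 Ccl4 UMIs. Without the cell with most Ccl4 in each library the values were 276 CPM in SCI and 163 CPM in Sham, a log2 ratio of 0.76 (interval 0.50 to 1.02), which is no longer past 2-fold. The chemokine receptor Cxcr4, which retains leukocytes in bone marrow, was at 125 CPM in SCI against 47.3 CPM in Sham, a log2 ratio of 1.40 with an interval of 0.96 to 1.85, and at 0.70 in non-cytotoxic T cells on the log2 ratio scale. Of 10 type I interferon genes, 0 were past 2-fold higher and 1 lower, while 1.03% of all genes were past 2-fold lower. Of the 10, 7 had a log2 ratio above 0, and the median was 0.14 against 0.06 over all genes. The lower gene was Ifi27, an interferon-induced gene, at 141 CPM in SCI against 560.0 CPM in Sham. Its log2 ratio was -1.99 with an interval of -2.25 to -1.74, and its ratio in non-cytotoxic T cells was -1.92.

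RNA of other blood cells differed between the libraries. Neutrophil genes summed to 6.32 CPM in SCI, 6.83 in MSC-i.t, 15.6 in MSC-i.v and 3480 CPM in Sham members, and 1 Sham barcode held 99.4% of S100a9 and 99.0% of S100a8 UMIs. Erythroid genes summed to 134 CPM in SCI, 317 in MSC-i.t, 1489 in MSC-i.v and 4208 in Sham, platelet genes to 37.9, 303, 153 and 178 CPM, monocyte genes to 81.2, 66.7, 129 and 239 CPM, and B cell genes to 353, 331, 366 and 392 CPM. Of the 5 lowest named genes in SCI over Sham (S100a9, S100a8, Alox15, Ahsp and Lgals5), S100a9 and S100a8 were in the neutrophil list and Lgals5 in the erythroid list. Ahsp, a haemoglobin chaperone, is an erythroid gene.

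MSC-i.t over SCI and MSC-i.v over SCI share the SCI library with the comparison above, so the reverse of the SCI pattern is not independent of it. MSC-i.t over SCI had 30 genes higher (0.665% of 4511) and 179 lower (3.97%), or 4.63% in all, and MSC-i.v over SCI 26 higher (0.724% of 3590) and 153 lower (4.26%), or 4.99% in all. Of the genes counted, 151 of 209 and 119 of 179 were past 2-fold with the same sign in non-cytotoxic T cells. After subtraction of that ratio 27 genes were higher and 14 lower in MSC-i.t over SCI, and 25 higher and 16 lower in MSC-i.v over SCI. The median log2 ratio of all genes in MSC-i.v over SCI was -0.11, and ratios there are read against it. Purb, a nucleic acid binding protein, was at 8.93 CPM in MSC-i.t against 122 CPM in SCI, a log2 ratio of -3.77 with an interval of -4.59 to -3.04, and at 8.34 CPM in MSC-i.v against 122 CPM in SCI, a log2 ratio of -3.87 with an interval of -5.11 to -2.85.

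Of the effector lists, 2 of 12 granule genes and 1 of 10 NK receptors were past 2-fold in MSC-i.t over SCI (4.63% of all genes), and 2 of 11 and 1 of 9 in MSC-i.v over SCI (4.99% of all genes). These counts rest on the same genes, Gzmb, Klri1 and Lamp1. Gzmb was at 55.2 CPM in MSC-i.t against 19.0 CPM in SCI, a log2 ratio of 1.54 with an interval of 0.86 to 2.29, and at 52.2 CPM in MSC-i.v against 19.0 CPM in SCI, a log2 ratio of 1.46 with an interval of 0.70 to 2.27; in MSC-i.v 22 of the 50 UMIs were in 1 cell. Klri1 was at 43.6 CPM in MSC-i.t against 17.1 CPM in SCI, a log2 ratio of 1.35 with an interval of 0.61 to 2.15, and at 51.1 CPM in MSC-i.v against 17.1 CPM in SCI, a log2 ratio of 1.58 with an interval of 0.79 to 2.42. The adaptor-high cells, which held most UMIs of Gzmb and Klri1, made up 18.2% of the MSC-i.t members and 26.3% of the MSC-i.v members, against 11.1% of the SCI members. Once these were left out, Gzmb had 34 UMIs (22.3 CPM) in MSC-i.t, 18 of them in 1 cell, and 3 UMIs (4.43 CPM) in MSC-i.v, against 2 UMIs (2.07 CPM) in SCI; the log2 ratios were 3.43 (interval 1.47 to 6.54) for MSC-i.t over SCI and 1.10 (-2.03 to 4.68) for MSC-i.v over SCI. Klri1 then stood at 13.8 CPM for MSC-i.t and 10.3 CPM for MSC-i.v, against 5.16 CPM in SCI, with log2 ratios of 1.42 (-0.03 to 3.18) and 1.00 (-0.87 to 3.00). Apart from Gzmb in MSC-i.t over SCI, these intervals include 0. Lamp1, of the granule list, was past 2-fold downward, at 49.9 CPM in MSC-i.t against 117 CPM in SCI and at 34.4 CPM in MSC-i.v against 117 CPM in SCI. Ccl4 was at 147 CPM in MSC-i.t against 424 CPM in SCI and at 159.6 CPM in MSC-i.v against 424 CPM in SCI, and without the cell with most Ccl4 in each library the log2 ratios were -0.99 in each comparison, just short of 2-fold. Tyrobp was at 687 CPM in MSC-i.v against 291 CPM in SCI, a log2 ratio of 1.24 with an interval of 1.04 to 1.43, with a log2 ratio of 1.53 in non-cytotoxic T cells and 1.65 without the adaptor-high cells, whose share was 26.3% in MSC-i.v and 11.1% in SCI. The 5 highest named genes in MSC-i.t over SCI included the platelet genes Pf4, Clec1b and Pla2g2a, while platelet genes summed to 303 CPM in the MSC-i.t members, against 37.9 CPM in the SCI members.

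Against Sham the treated libraries differed in fewer genes. MSC-i.t over Sham had 14 higher (0.301% of 4649) and 51 lower (1.10%), or 1.40% in all, and MSC-i.v over Sham 7 higher (0.187% of 3741) and 41 lower (1.10%), or 1.28% in all. Of these, 9 of 65 and 2 of 48 were past 2-fold with the same sign in non-cytotoxic T cells. In MSC-i.t over Sham 0 of 13 granule genes and 0 of 10 NK receptors were past 2-fold, and in MSC-i.v over Sham 1 of 12 granule genes (Unc13d, which primes granules for release, at 16.7 CPM in MSC-i.v against 35.5 CPM in Sham, with a log2 ratio of -1.09, or -2.00 without the adaptor-high cells) and 0 of 10 NK receptors. Of 11 type I interferon genes, 0 were past 2-fold higher and 1 lower in MSC-i.t over Sham, with a median log2 ratio of -0.22. In MSC-i.v over Sham 1 of 11 was higher and 1 lower, with a median of 0.06. The medians over all genes were -0.01 and -0.04. The interferon-induced Isg15 was at 25.7 CPM in MSC-i.t against 77.6 CPM in Sham, a log2 ratio of -1.59 with an interval of -2.11 to -1.09. Parp9, another interferon-induced gene, was at 59.5 CPM in MSC-i.v against 28.8 CPM in Sham, a log2 ratio of 1.05 with an interval of 0.43 to 1.67. Ifi27 went the other way in MSC-i.v over Sham, with a log2 ratio of -1.33. S100a4 led the genes higher in MSC-i.v over Sham, at 189 CPM in MSC-i.v against 71.7 CPM in Sham, a log2 ratio of 1.40 with an interval of 1.03 to 1.77, and 1 barcode held 42.0% of its UMIs in MSC-i.v. Of the 5 lowest named genes, S100a9, S100a8, Anxa1 and Tf were so in both comparisons, and 1 Sham barcode held 80.6% of Anxa1 and 90.3% of Tf UMIs. Without the adaptor-high cells the log2 ratios of MSC-i.v over Sham were 0.64 for Anxa1 and 0.03 for Tf, the reverse of -1.92 and -3.10 with them. Leaving out only barcodes with 10 or more S100a8 and S100a9 UMIs gave 0.44 for Anxa1 and 0.26 for Tf.

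**Figure D5:**
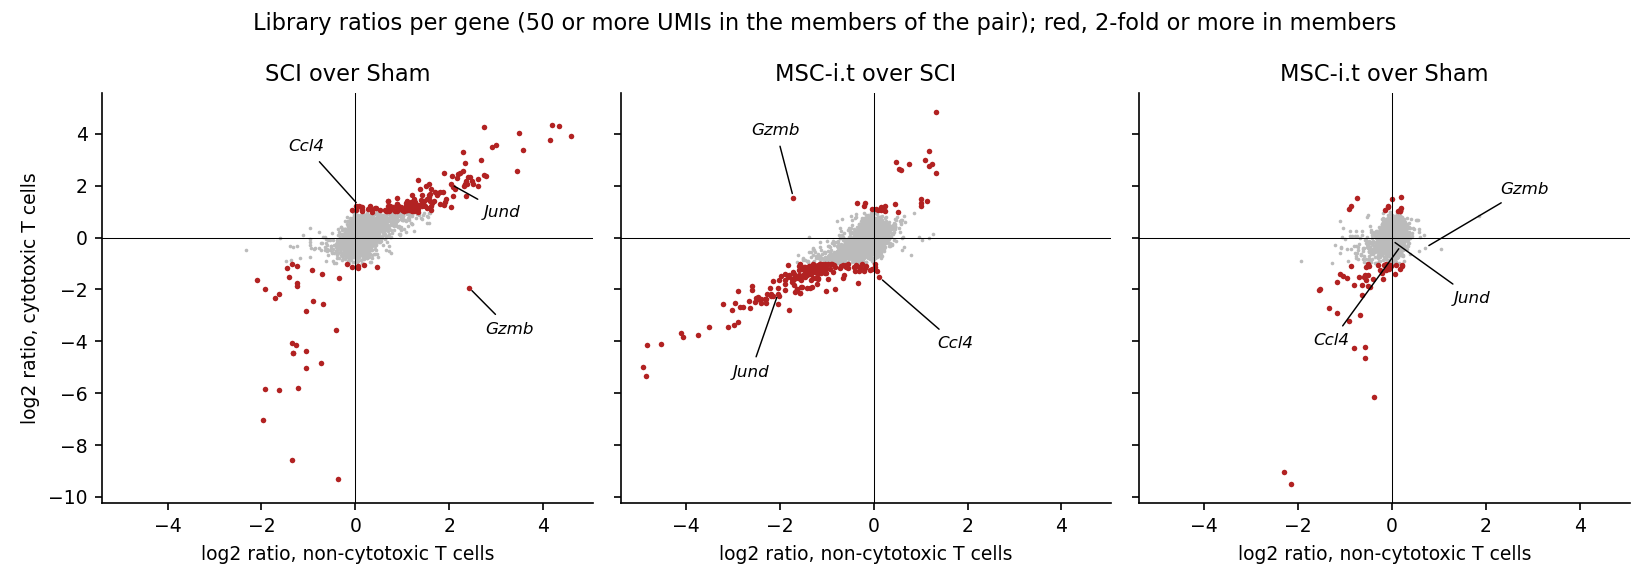
Log2 CPM ratio per gene in cytotoxic T cells (y axis) against the same ratio in non-cytotoxic T cells (x axis) for SCI over Sham, MSC-i.t over SCI and MSC-i.t over Sham; each point is a gene with 50 or more UMIs in the pair's members and UMIs in both libraries, and red marks a ratio of 2-fold or more in the members. In the first 2 panels the red points run along the diagonal, as for Jund at 2.06 and 2.03 in SCI over Sham, while Ccl4 lies off it, and in the third panel 51 of the 65 genes counted lie below 0 in members, and 9 of the 65 are past 2-fold with the same sign in non-cytotoxic T cells.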

How the data were processed

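The authors deposited unfiltered matrices of raw UMI counts (25340 genes by 6794880 possible barcodes in each library), which Cell Ranger 4 made, per the file headers. Per the submitters' processing notes, mRatBN7.2 was the rat genome used. The labels' protocol describes a bulk RNA extraction, and how the cells were isolated is not given in the sources used here. Totals were 63133881 UMIs in SCI, 80115646 in MSC-i.t, 91124523 in MSC-i.v and 71648050 in Sham, and medians of kept barcodes 5886, 5523.5, 3808 and 5031.5.

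The members, gene lists and tests were chosen with earlier results of these data known. Counts were summed per library and cell group and scaled to CPM. Shares have exact Clopper-Pearson intervals and ratios exact conditional binomial intervals at 95%. The 3 contrasts between cell groups used edgeR 4.0.16 (limma 3.58.1, R 4.3.3) with the library as a block, because both sums of a pair come from the same library; DESeq2 1.42.0 was an alternative. The 4 libraries are different conditions, and p-values measure the spread of a contrast between them. Python 3.11.15, numpy 2.4.6, scipy 1.17.1 and pandas 2.3.3 were used. The scripts were tested on simulated counts.

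For the libraries, the named genes had the 5 highest and the 5 lowest CPM ratios, with 50 or more UMIs in 1 library of a pair and UMIs in 5% of its members, and for the tests they were the 10 largest changes in each direction at an adjusted p under 0.05 with the same sign in 4 libraries and a mean of 20 CPM in the higher group. Rule genes, sex-linked, mitochondrial, ribosomal, haemoglobin, immunoglobulin and T cell receptor segment genes were left out. A few other listed or named genes are not reported here. Of 310 genes listed, 285 were used, 283 by symbol and 2 by synonym. No doublet caller was run, and leaving out the 2% of barcodes with most UMIs was an alternative. Promoter sequences are from RefSeq (GRCr8), and no coordinates come from the count files.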

Additional observations from a re-analysis of the deposited data

Results flagged for a closer look

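Of the 53 named changes of the contrasts between cell groups, 46 had UMIs of both groups in all 4 libraries. In 4 of these 46, 1 library stood apart from the other 3 by more than Dixon's 95% limit, and chance flags about 1 in 20. In members over NK cells, Rab3ip had a log2 ratio of 3.11 in Sham, against 4.48 to 4.52 in the other libraries. In the same contrast Kcnk1 had -6.16 in Sham, with 1 UMI in members there, against -3.48 to -3.25 in the others, and Syk had -4.81 in SCI, against -3.34 to -3.12 in the others. In cytotoxic over non-cytotoxic CD8 T cells, Atp1b1 had 4.30 in Sham, against 5.31 to 5.50 in the others. The sign was the same in all 4 libraries for each.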

How the results depend on the processing

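Results without a test between groups rest on 1 library each, so counting error is the limit that could be measured; the Nkg7 alone and adaptor-high groups and the settings that leave out adaptor UMIs, barcodes with 10 or more S100a8 and S100a9 UMIs, or the member with most UMIs of a gene were chosen after seeing the data. The share of T cells moved to 1.34, 1.88, 1.18 and 1.83% (SCI, MSC-i.t, MSC-i.v, Sham) with 6 or more UMIs asked and to 1.01, 1.39, 1.00 and 1.47% with thinning. Of the shares under alternatives, 30 were within the main interval and 18 were not.

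The number of genes past 2-fold was 186, 209, 179, 65 and 48 for SCI over Sham, MSC-i.t over SCI, MSC-i.v over SCI, MSC-i.t over Sham and MSC-i.v over Sham. It became 488, 497, 504, 248 and 277 with 20 or more UMIs over the pair, 41, 50, 32, 16 and 9 with 200 or more, and 35, 29, 26, 21 and 28 in CD8-negative cells alone. Subtracting non-cytotoxic T cells left 54, 41 and 41 in the first 3 comparisons, and members with no adaptor UMI gave 37 and 23 in the 2 comparisons over Sham. Reversed log2 ratios after subtraction were Dapk3 -0.040, Cdv3 -0.39, Klrc3 0.31 and Zfp36l2 -0.058 in SCI over Sham; Cdv3 0.71, Dapk3 0.40, Sap30l 0.22 and Fkbp5 0.082 in MSC-i.t over SCI; Sap30l 0.28, Tyrobp -0.29, Zfp36l2 0.20 and Jund 0.24 in MSC-i.v over SCI; and Ifi27 0.21 in MSC-i.v over Sham. Car2 was -0.26 in MSC-i.v over SCI without platelet or haemoglobin RNA. In MSC-i.v over Sham, S100a4 was -0.31 with 6 or more UMIs; Tf was 0.54 there, 0.77 in CD8-positive cells, 0.026 without adaptor-high cells and 0.26 without S100 barcodes; Anxa1 was 0.18, 0.93, 0.64 and 0.44 in the same settings and 1.53 with no adaptor UMI. The cause was not tested.

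Of the tests, the CD8 contrast (11 higher, 11 lower) gave 2 and 7 with DESeq2, 114 and 37 with no filter on low counts, 2 and 3 with thinning, 27 higher without the 2% deepest barcodes, 6 and 4 without adaptor-high cells, and 6 to 20 higher and 6 to 18 lower when a library was left out. Without the library as a replicate block it gave 1 and 7, and cytotoxic over non-cytotoxic CD8 T cells gave 558 higher and 293 lower without the block, against 837 and 686 with it. Members over NK cells (656 and 678) gave 364 and 345 with DESeq2, 227 and 176 with thinning, and 519 to 596 and 539 to 611 with a library left out. Cytotoxic over non-cytotoxic CD8 T cells gave 162 and 216 with thinning, 510 and 399 with no adaptor UMI, 340 lower with DESeq2, and 689 to 810 and 528 to 579 with a library left out. Fewer UMIs or cells enter the thinned and adaptor settings.

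Of log2 fold changes of single genes, 2394 kept sign and call, 297 lost the call and 15 reversed. With thinning these were S100a6 0.61 and Hbb -1.70 (CD8 contrast), Klrk1 0.035 (over NK cells), and Mcm2 -0.67, Mcm6 -0.13, Mcm4 -0.063 and Cd6 -0.043 (over non-cytotoxic CD8 T cells). Top2a over NK cells was -0.77 without the 2% deepest barcodes. Over non-cytotoxic CD8 T cells, Prf1 was -0.13 and Tyrobp -0.14 without adaptor-high cells; with no adaptor UMI Prf1 was -0.14, and Tyrobp -10.07 and Fcer1g -9.01 by construction; S100a8 was -2.86 to 0.17 with a library left out (0.17 without MSC-i.v) and 0.032 without the 2% deepest barcodes.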
